A study of Mus musculus with 2 samples.

Results

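The genes of fatty acid oxidation and lipid handling were examined as a module of 40 genes on 2 oligonucleotide arrays of mouse ureter at embryonic day E18.5. The members were chosen by gene name from a list that spans the oxidation pathway from the fuel switch and the activation of fatty acids to lipid stores and uncoupling proteins. All 40 were present on the array among 29923 named genes, with 56 probes, and all 40 were detected well enough to be tested, among 22499 such genes. Each array compared a pool labelled Pparg-cKO (Pax2-cre/+; Pparg(fl/fl)) with a pool labelled control (Pparg(fl/?), cre-negative littermates according to the study's methods). All embryos were of the NMRI strain, replicate 1 was female and replicate 2 was male, and each pool held ureters of several embryos. The Pax2-cre line is active in the nephric duct and its derivatives, among them the epithelium that lines the ureter, whereas the RNA came from the whole dissected ureter with its mesenchyme and muscle.

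Cells that burn fat first link each fatty acid to coenzyme A and then pass long chains into mitochondria on carnitine, where a cycle of dehydrogenation, hydration and thiolysis shortens them and feeds electrons to the respiratory chain. Very long and branched chains are shortened in peroxisomes. The nuclear receptors of the PPAR family bind fatty acids and, with RXR, switch on many of these genes through direct repeats of a hexamer spaced by a single base, and PPARG is best known from fat cells, where it drives lipid storage.

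The words higher and lower follow the deposited value table, whose columns are titled Pparg-cKO against control, and this is also the direction of the study's text, so that it is the likely one. The dye labels run the opposite way on both arrays: if they are right as written, every higher and lower is exchanged, while all sizes and p-values stay. Pparg itself had a processed signal of 12360 in the female and 12930 in the male pool labelled Pparg-cKO, against 6113 and 6688 in the control pools (1.96-fold higher, adjusted p of 0.0373 in limma). In the study's sections a transcript without the floxed exons was still made and was raised at this stage, so that a higher value need not oppose the label. The position of the probe relative to those exons was not analysed here. Signals are in linear units of the scanner software in the order Pparg-cKO female, control female, Pparg-cKO male and control male. Ratios are log2 of the pool labelled Pparg-cKO over control. Spots of a probe lie on the same array and are not replicates of the tissue, so that n = 2 arrays throughout.

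Few members passed a threshold, and those that did were lower. With the fold and intensity thresholds of the study, a fold rule was applied here to the loess-normalised ratios: both arrays had to show a gene at least 1.5-fold changed the same way, with a signal of at least 100 in the brighter pool of each. Of 34 members bright enough for this rule, Pdk4 and Acot1 passed it, both lower in the pools labelled Pparg-cKO. Among all 14015 genes bright enough, 1.84% passed, 1.05% in the lower and 0.792% in the higher direction. In limma 0 of the 40 members had an adjusted p under 0.05, against 0.751% of all genes tested, and the adjusted p of members ran from 0.110 (Pdk4) to 0.995 (Acads, Acox3 and Ucp3). At an unadjusted p under 0.05 limma listed 6 members, all lower: Pdk4, Acot1, Decr2, Decr1, Acot2 and Ehhadh. This is 15% of the members, against 8.51% of all genes in either direction and 4.2% in the lower one. The same 6 members were those at least 1.2-fold lower on both arrays, a size seen in 2.95% of all genes, and 0 members were 1.2-fold higher on both, against 2.73%. These shares describe the list and do not test it.

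**Figure D1:**
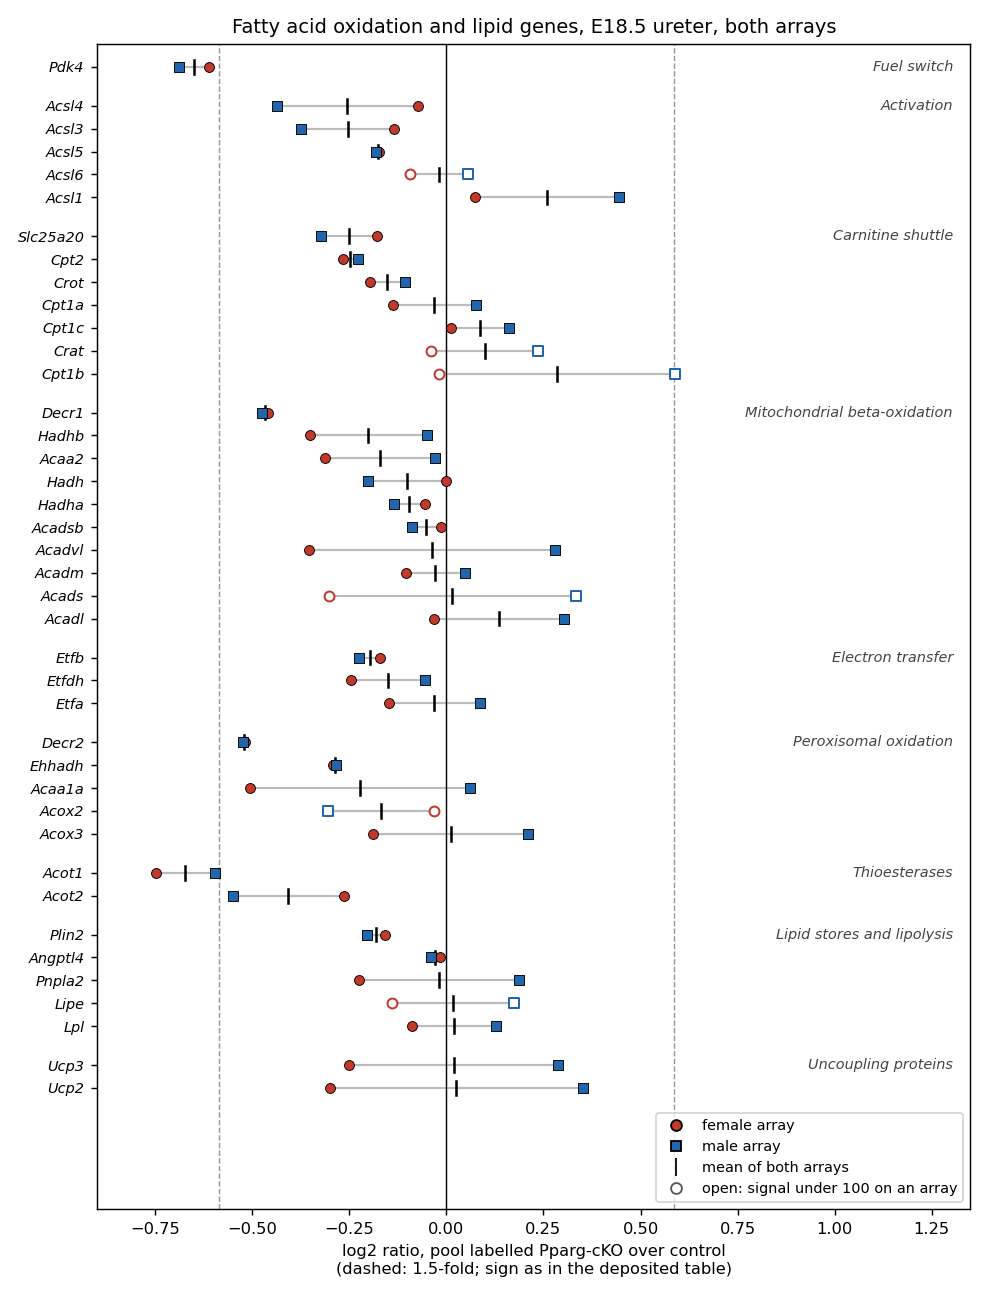
Log2 ratio of the pool labelled Pparg-cKO over control (horizontal axis) for each of the 40 genes, grouped by role, with the female array as circles, the male array as squares and their mean as a bar; open symbols mark a signal under 100 on an array, and dashed lines mark 1.5-fold. Pdk4 and Acot1 lie left of the dashed line on both arrays, and many other genes are split between a lower female and a higher male value.

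The fuel switch had 1 member. Pdk4 encodes pyruvate dehydrogenase kinase 4, which turns off the pyruvate dehydrogenase complex so that fat is burned in place of glucose. Its probe maps to chromosome 6, bases 5433441 to 5433500 of build mm9. The processed signal was 227.5 in the Pparg-cKO female pool, 351.5 in the control female pool, 218.1 in the Pparg-cKO male pool and 367.8 in the control male pool. Both pools labelled Pparg-cKO were below both control pools, and each of the 4 spots of a pool labelled Pparg-cKO was below each spot of its control on the same array. The log2 ratio was -0.61 for the female pair and -0.69 for the male pair, a mean of -0.65 ± 0.06 (SD, n = 2), which is 1.57-fold lower, with an adjusted p of 0.110 in limma. The adjusted p ranged from 0.0302 to 0.554 over the ways of processing that used both arrays. Among the 5 other genes of pyruvate dehydrogenase control, all tested, 0 passed the fold rule. Their mean log2 ratios ran from -0.29 to 0.28.

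Pdk4 is also abundant in skeletal muscle. The summed signal of 8 skeletal muscle markers in the pool labelled Pparg-cKO was 0.924 of the control for the female pair and 0.696 of it for the male pair. Most of this sum was the signal of Acta1, with 6275 of 7449 in the female pool labelled Pparg-cKO. Of the 8 markers 6 were lower on both arrays, 4 of them by at least 1.2-fold, and 1 was higher on both. Tnnc2, the fast troponin C, passed the fold rule and was lower, with signals of 94.85, 174.9, 112.5 and 225.2. Ckm, the muscle creatine kinase, gave 879.7, 1253, 772.3 and 1495, Myh8 had a mean log2 ratio of -0.56 and Tnnt3 one of -0.39. The study stained CKM as a smooth muscle marker of the ureter, so these markers are not all specific to skeletal muscle. Whether the pools held skeletal muscle, and its part in the value of Pdk4, was not tested.

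The thioesterases release free fatty acids from coenzyme A, Acot1 in the cytosol and Acot2 in mitochondria, and they are neighbours on chromosome 12. Acot1 (85358561 to 85358620, mm9) gave signals of 940.3, 1532, 920.1 and 1441. All spots of the pools labelled Pparg-cKO were again below those of the controls on both arrays, and the female and male values of a genotype lay closer together than the genotypes did. Its log2 ratio was -0.75 for the female pair and -0.60 for the male pair, a mean of -0.67 ± 0.11 (SD, n = 2) and the lowest of the module, or 1.59-fold lower, with an adjusted p of 0.111 in limma (0.0292 to 0.533 over the ways of processing that used both arrays). Acot2 (85334071 to 85334130, mm9) gave 131.6, 157.3, 103.1 and 166.6, so that its female spots overlapped between the pools while its male spots did not. Its mean log2 ratio was -0.41 ± 0.20 (SD, n = 2), 1.33-fold lower, with an adjusted p of 0.426 in limma. The genes of this cluster are close relatives. The best ungapped match between the Acot1 and the Acot2 probe held 25 equal bases in 57 aligned, so these 60-base probes differ, but binding of either transcript to the other's probe was not examined.

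Where these genes start is shown by the 250 bases before the start sites of the 2 members past the fold rule, from the RefSeq promoter table of build GRCm38.p6, with CCAAT or its reverse complement ATTGG in capitals, a common promoter box that was searched on both strands:

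Pdk4 (chr6:5496279-5496528, minus strand): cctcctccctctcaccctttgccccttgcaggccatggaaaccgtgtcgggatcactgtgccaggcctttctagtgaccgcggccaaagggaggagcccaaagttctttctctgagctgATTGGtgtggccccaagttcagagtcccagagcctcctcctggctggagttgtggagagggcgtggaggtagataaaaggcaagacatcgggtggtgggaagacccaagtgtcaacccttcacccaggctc

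Acot1 (chr12:84009252-84009501, plus strand): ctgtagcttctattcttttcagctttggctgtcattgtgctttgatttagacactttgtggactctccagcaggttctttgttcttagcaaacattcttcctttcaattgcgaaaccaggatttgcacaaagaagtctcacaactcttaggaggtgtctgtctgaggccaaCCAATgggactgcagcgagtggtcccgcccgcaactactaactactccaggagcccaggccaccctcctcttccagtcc

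The box was present in the windows of 18 of the 34 members in the table (52.94%) and in 37.49% of 27025 genes. The PPAR and RXR element was searched on both strands as AGGTCANAGGTCA with at most 2 mismatches over its 12 fixed bases. It was found in neither of these windows, and neither held the single hexamer AGGTCA or its reverse complement. Of the 34 members 3 (8.82%) had a match, against 3.72% of all genes, and 0 of these 3 passed the fold rule. The matches are shown with 8 bases on each side, the site in capitals:

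Plin2: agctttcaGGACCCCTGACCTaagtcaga

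Ucp3: tcagaattAGGTTTCAGGTCAgctggtgc

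Etfa: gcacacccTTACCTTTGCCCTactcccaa

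The sites of Plin2 (chr4:86670272-86670284) and Etfa (chr9:55512308-55512320) read on the strand opposite to the gene, and that of Ucp3 (chr7:100472940-100472952) on the strand of the gene. A match is a description of letters, and elements farther away or inside genes were not searched.

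**Figure D2:**
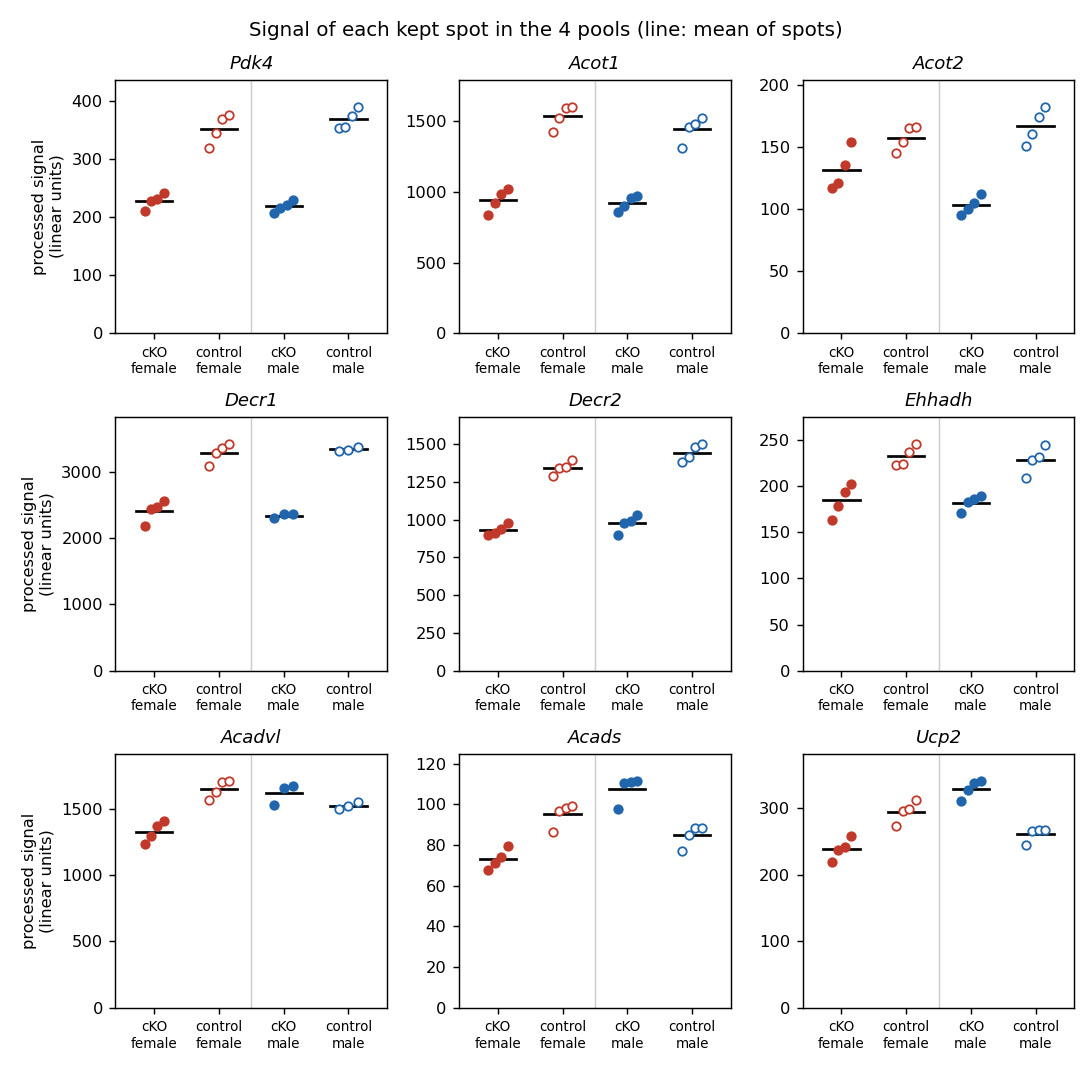
Processed signal (vertical axis, linear units from 0) of every kept spot in the 4 pools, filled for the pool labelled Pparg-cKO and open for control, red for female and blue for male, with the mean of the spots as a line. For Pdk4, Acot1, Decr1, Decr2 and Ehhadh the filled points lie below the open ones on both arrays, whereas for Acads and Ucp2 they lie below in females and above in males.

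Peroxisomal oxidation had 5 members, of which 3 were lower on both arrays and 0 passed the fold rule. Among all genes tested 26.2% were lower on both, and 1.84% of those bright enough passed the rule. Decr2, the peroxisomal 2,4-dienoyl-CoA reductase needed for unsaturated chains, gave signals of 930.5, 1343, 974.3 and 1442. The spots of the pools did not overlap on either array. The log2 ratio was -0.52 on both arrays (SD 0.0045, n = 2), 1.44-fold lower, and so just short of the rule, with an adjusted p of 0.184 in limma. Ehhadh, the bifunctional hydratase and dehydrogenase, gave 184.7, 232.7, 182.4 and 228.4, again without overlap of spots, for a mean of -0.29 ± 0.0059 (SD, n = 2), 1.22-fold lower (adjusted p of 0.540 in limma). Acaa1a, the peroxisomal thiolase, was at -0.51 for the female pair and 0.06 for the male pair. The oxidases of branched chains were at -0.17 for Acox2, with signals from 8.191 to 14.22, and 0.01 for Acox3 in the mean.

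Mitochondrial beta-oxidation had 10 members, and 6 of these were lower on both arrays, as were 26.2% of all genes tested. Decr1, the mitochondrial counterpart of Decr2, gave signals of 2413, 3287, 2339 and 3339 at its brighter probe (chromosome 4, 15846075 to 15846134, mm9), with no overlap of spots. Its log2 ratio was -0.46 for the female pair and -0.48 for the male pair, a mean of -0.47 ± 0.01 (SD, n = 2), 1.38-fold lower, with an adjusted p of 0.241 in limma. A second probe of Decr1 gave 293.2, 311.2, 290.0 and 337.7, which is -0.13 in the mean, so that the size for this gene depended on the probe. The 2,4-dienoyl reductases of both organelles thus had the same direction, with a like size at the brighter probe of Decr1 and the single probe of Decr2.

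The core enzymes of the cycle were nearer 0 than Decr1 at its brighter probe, but Hadhb and Acaa2 lay below its second probe (-0.13). This comparison was not tested. The subunits of the trifunctional protein were at -0.10 for Hadha and -0.20 for Hadhb, the hydroxyacyl dehydrogenase Hadh at -0.10 and the thiolase Acaa2 at -0.17. Hadhb had ratios of -0.35 (female) and -0.05 (male), with separate spots on both. The first step is carried out by acyl-CoA dehydrogenases for chains of different length. Their means were -0.04 for Acadvl, 0.14 for Acadl, -0.03 for Acadm, 0.02 for Acads and -0.05 for Acadsb, none of these past either threshold. Electrons leave this step through the electron transfer flavoprotein, whose subunits were at -0.03 for Etfa and -0.20 for Etfb, and its dehydrogenase Etfdh was at -0.15. Etfb, with 3 probes at -0.20, -0.20 and -0.27, was lower at each of them.

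The activation of fatty acids split by family member. Acsl3, Acsl4 and Acsl5, acyl-CoA synthetases of long chains, were at -0.25, -0.26 and -0.18 in the mean, with no overlap of spots on either array. Acsl1, the major synthetase of fat, liver and heart, had the opposite sign, with signals of 620.9, 587.3, 933.2 and 699.0 and log2 ratios of 0.07 and 0.44 (mean 0.26 ± 0.26, SD, n = 2, adjusted p of 0.703 in limma). Its second probe was at 0.12. Acsl6 was well above background in 1 pool of each array, with signals from 2.401 to 4.742, and its mean was -0.02; the other 39 members were well above background in all 4 pools. Whether Acsl1 differs from its relatives was not tested.

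The carnitine shuttle carries activated chains across the mitochondrial membranes. The translocase Slc25a20 and the inner enzyme Cpt2 were both at -0.25, and Crot, the octanoyl transferase of peroxisomes, was at -0.15. The outer enzymes, where entry is controlled, were at -0.03 for Cpt1a, 0.28 for Cpt1b and 0.09 for Cpt1c. Cpt1b, the muscle form, rested on signals between 19.90 and 37.05 and on the male array alone (-0.02 female, 0.59 male), and its second probe was at 0.03. The acetyl transferase Crat was at 0.10 with signals from 23.79 to 30.57.

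Genes of lipid stores and lipolysis did not pass either threshold. Plin2, which coats lipid droplets, gave 1679, 1905, 1562 and 1860, and its spots did not overlap on either array, for a mean of -0.18 ± 0.03 (SD, n = 2). Angptl4, an inhibitor of lipoprotein lipase and a widely used PPAR target, gave 851.2, 878.2, 885.8 and 908.6, a mean of -0.03 ± 0.02 (SD, n = 2), so that its 4 pools lay close together. Lpl itself was at 0.02 with the brighter probe and -0.24 with the other, and the lipases Pnpla2 and Lipe, which release fatty acids from droplets, were at -0.02 and 0.02. The uncoupling proteins Ucp2 and Ucp3, which carry ions or fatty acid anions across the inner membrane, were at 0.03 and 0.02 in the mean and had opposite signs on the arrays.

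The split of the members around 0 differed between the arrays. In the female pair 38 of 40 members were lower in the pool labelled Pparg-cKO, against 51.8% of all genes tested, and in the male pair 22 (55%) were, near the 47.7% of all genes. These counts go by sign alone. Hadh counts as lower on both arrays, with a female ratio of -9.6e-05 and female signals of 4319 (Pparg-cKO) and 4301 (control). The members lower on both arrays numbered 22, or 55%, against 26.2% of all genes tested, and those higher on both numbered 2, Acsl1 and Cpt1c, or 5%, against 26.6%. With the comparison kept to genes past the signal threshold, as many members are bright, 21 of 34 members (61.8%) were lower on both arrays, against 26.2% of such genes, and 2 were higher, against 26.8%. The median log2 ratio of the 40 members was -0.17 for the female pair and -0.05 for the male pair, and -0.10 for the mean of both. Over all genes tested these medians were -0.01, 0.01 and 0.01. The SD between the arrays ran over members from 0.0045 (Decr2) to 0.46 (Ucp2), with a median of 0.15.

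**Figure D3:**
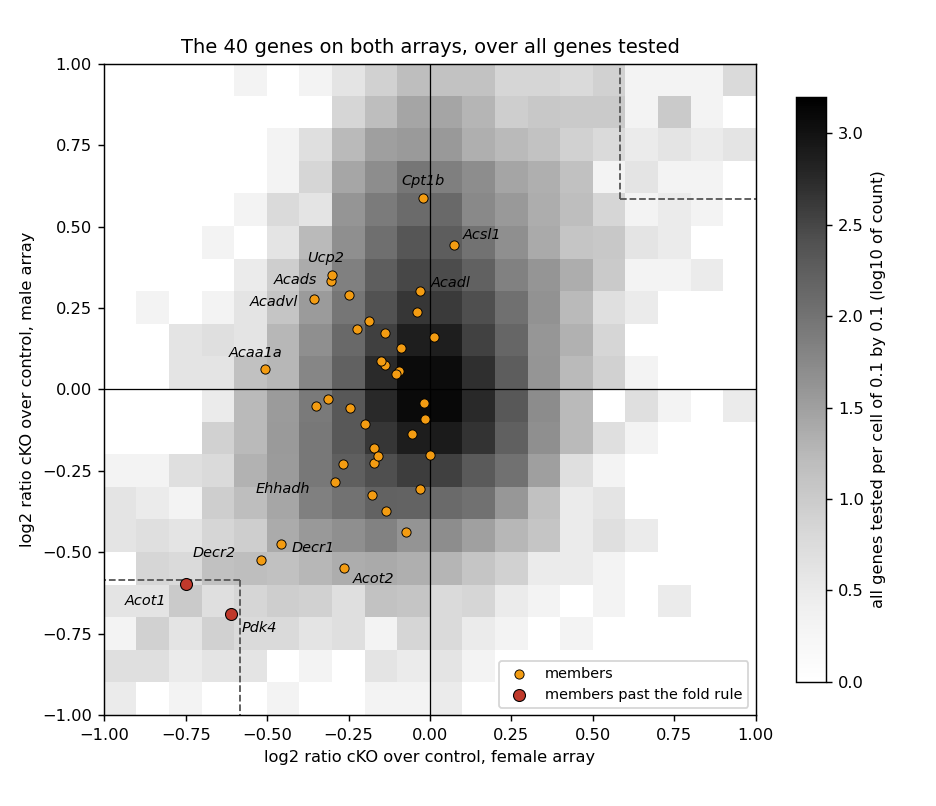
Log2 ratio on the female array (horizontal) against the male array (vertical) for the 40 genes, over all genes tested in grey (darker cells hold more genes, log10 scale); the dashed corners mark 1.5-fold in the same direction on both arrays. Of the members 22 lie in the lower left quadrant, 2 in the upper right, 16 in the upper left and 0 in the lower right.

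A further 16 members (40%) had a ratio below 0 in females and above 0 in males, against 25.7% of all genes (25.3% of those past the signal threshold), and 0 had the reverse pattern, against 21.6%. In this pattern the ratio favoured the green dye on both arrays. Dye, sex and array changed together here and cannot be told apart. Of these members 3 were at least 1.2-fold apart on each array after loess, as were 0.862% of all genes, and 0 were so in the reverse direction, against 0.516%. Acadvl, the dehydrogenase of very long chains, gave signals of 1326, 1650, 1620 and 1522. Its male spots overlapped, and its male log2 ratio of 0.28 became 0.09 with scanner-processed signals, 0.14 with the deposited table and 0.25 without an offset, all under 1.2-fold, and 0.46 with median centring. Acads, that of short chains, gave 73.29, 95.09, 107.7 and 84.76. Ucp2 gave 239.2, 294.8, 329.3 and 261.5. In each case the female pool labelled Pparg-cKO was the lowest of the 4 and the male one was close to the highest or the highest. In processed signals, taken without the loess, spots were separate in opposite directions on the arrays for Acaa1a, Acads, Cpt1a, Ucp2 and Ucp3. How often this occurs among all genes was not computed.

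The other genes of these pathways, 64 listed and 62 tested, were read in the same way. Vldlr, a receptor that takes up triglyceride-rich lipoproteins, was the 1 gene of 48 bright enough (2.08%) that passed the fold rule, against 1.84% of all genes. Its signals were 1281, 2088, 1302 and 2205, with log2 ratios of -0.69 (female) and -0.70 (male; mean -0.70, SD 0.0067, n = 2), 1.62-fold lower, and an adjusted p of 0.0870 in limma. In limma 0 of the 62 had an adjusted p under 0.05, against 0.751% of all genes. An unadjusted p under 0.05 was seen in 17 (27.4%, against 8.51% of all genes and 15% of the members), of which 16 were lower. Of the 62, 35 (56.5%) were lower on both arrays, against 26.2% of all genes, and 8 (12.9%) were higher on both, against 26.6%, with a median of -0.13. Plin5 and Ppargc1a are given as examples chosen after their values were seen. Plin5, a droplet protein of tissues that burn fat, had signals from 7.728 to 22.93, too dim for the rule. The coactivator Ppargc1a gave 245.7, 304.1, 226.4 and 322.7, for a mean of -0.41.

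Markers of the tissues a dissected ureter may hold were read as well, and these are whole-tissue values: fewer cells of a type and less RNA per cell cannot be told apart. The lowest adjusted p of a marker in limma was 0.0685 (Tnnc2). All 6 urothelial markers were well above background in all 4 pools, and their summed signal in the pool labelled Pparg-cKO was 0.541 of the control for the female pair and 0.81 of it for the male pair. Of the 6, 3 were lower on both arrays (Upk1b, Upk2 and Krt18), 2 were higher on both (Cdh1 and Epcam) and Krt5 was lower in the female and higher in the male pair, so that the sum was mostly that of the bright Krt18, Upk1b and Upk2. Upk1b, a uroplakin of luminal cells, passed the fold rule and was lower, with signals of 5041, 12080, 6246 and 10390. The general epithelial genes gave 1332, 973.0, 1486 and 1049 for Epcam and 2871, 2553, 5012 and 2499 for Cdh1. The summed fat markers stood at 0.793 and 1.04 of the control, with Cfd, Lep, Plin1 and Cidec not well above background on both arrays, and so not tested, so that the sum was mostly that of Fabp4. Of the 3 dim markers that were tested, 2 were lower on both arrays and Ucp1 was higher on both, with signals of 4.707, 4.387, 6.379 and 4.207. Adipoq, the adipokine, gave 12.26, 85.95, 8.237 and 13.07 (mean log2 ratio -0.99, adjusted p of 0.532 in limma), and Cidea, a droplet protein of brown fat, gave 12.94, 23.51, 14.49 and 24.12 (mean -0.37, adjusted p of 0.374 in limma). The part of residual fat in the members' values was not tested. Smooth muscle markers stood at 0.914 and 0.867, blood at 1.11 and 1.04, and macrophages at 1.02 and 1.07. Liver markers stood at 0.964 (female) and 0.527 (male), and proximal tubule markers at 0.791 and 0.512, the latter with summed signals from 131.3 to 256.5. Acot1 and Ehhadh are abundant in liver and kidney. The part of the liver, kidney and urothelial shares in their values was not tested.

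Whether Pdk4 and Acot1 passed depended on the normalization within the array. Both did with the scanner's own processed signals, without the offset in the background correction, with the deposited table, with the median over probes, without the filter on dim probes, and on each array alone, where 8.70% of bright genes passed in the male pair and 3.14% in the female pair. With median centring in place of loess 0 members passed, as the male log2 ratios became -0.41 for Pdk4 and -0.39 for Acot1. That centring also moved the median of all genes on the male array to 0.10. The members' median lay 0.08 below that of all genes on the male array under it and 0.19 below on the female array.

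**Figure D4:**
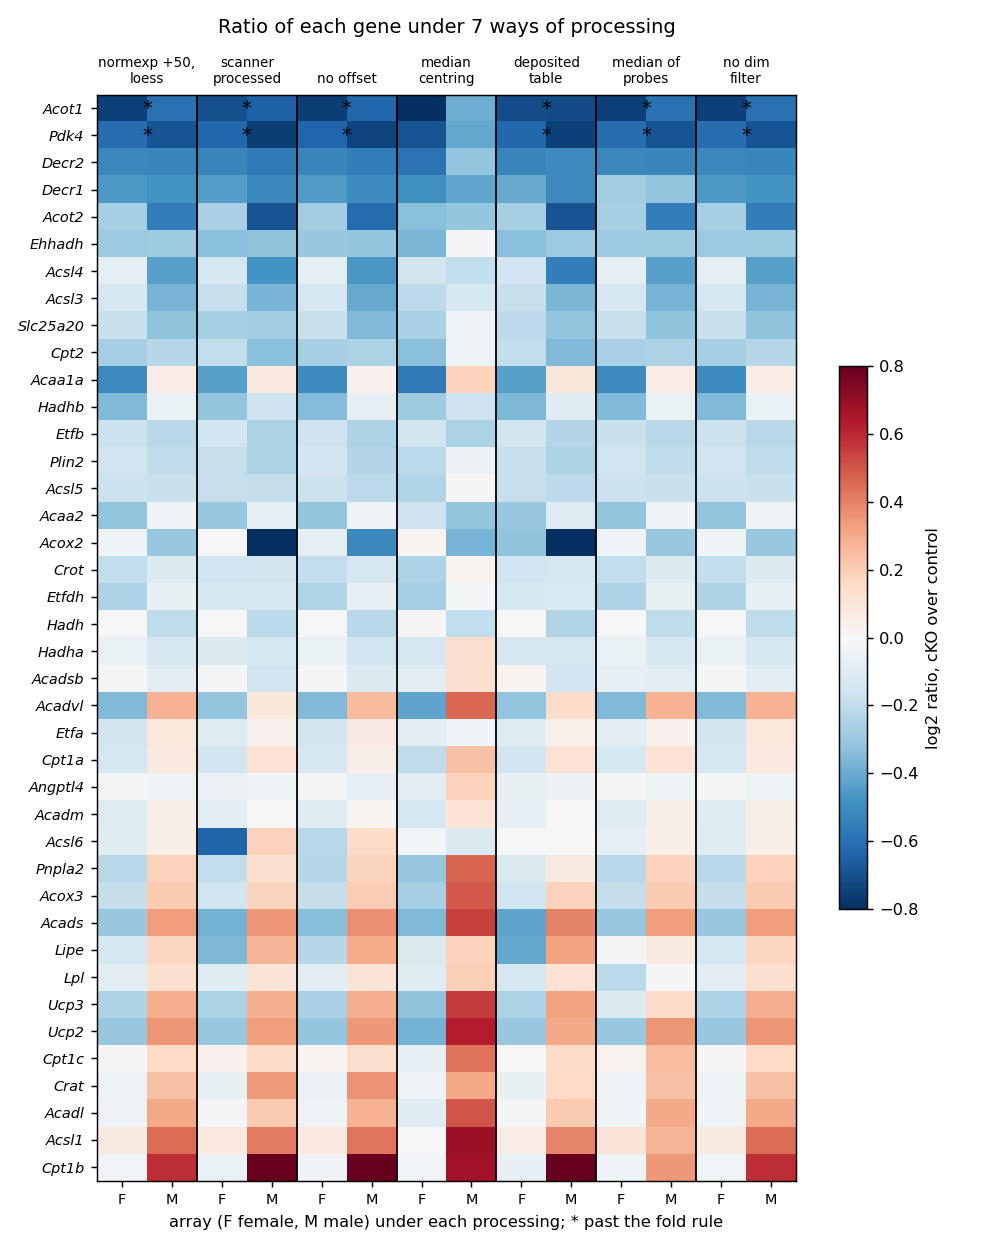
Log2 ratio (colour, blue lower and red higher in the pool labelled Pparg-cKO) of each gene (rows) on the female (F) and male (M) array under 7 ways of processing (columns), with a star where a gene passed the fold rule. Pdk4 and Acot1 carry a star in 6 of the 7, all but median centring, under which the male column turns towards red.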

How the data were processed

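Total RNA of pooled ureters was amplified in 1 round, labelled with AlexaFluor555 or AlexaFluor647 and hybridised as Pparg-cKO against control on 2 two-colour arrays with the dyes exchanged. Per the file headers, the authors' scanner files (Agilent Feature Extraction 10.7.3.1) held spot intensity on a linear scale with flags, and the deposited value table held a signed fold change, a ratio, per probe and array. Its Pearson correlation with log2 red over green, across probes well above background in both channels, was 0.990 on replicate 1 and -0.991 on replicate 2. By the dye labels control RNA was red on replicate 1, so the table runs against them.

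Mean signals were corrected with normexp (offset 50) and loess in limma 3.58.1 under R 4.3.3, outlier-flagged spots and controls were left out, and spots of a probe were averaged. A probe was printed on 4 spots. The brightest probe represented a gene, and 14 members had several. The array's RefSeq accessions matched the same symbol for 40 of 40 members in the GRCm38.p6 gene table. Probe positions are those of the design (mm9). Genes well above background in at least 1 pool on both arrays (22499) were tested. Limma fitted the mean of 2 ratios, two-sided, with Benjamini-Hochberg adjustment, 1 residual degree of freedom and a prior worth 4.00. With 1 pool per genotype and array, p-values rest on the spread between 2 arrays, drawn mostly from the prior shared by all genes. For Decr2, with an SD of 0.0045 between the arrays, the standard error in limma was 0.103. The number of arrays limits the precision. The procedure was tested on simulated data.

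The members, roles and lists of related and marker genes were chosen with earlier results of these data known. Every member is named. Related genes were named when past a threshold, and others are marked as chosen after their values were seen; some are not reported here. Alternatives were scanner-processed signals, no offset, median centring, the deposited table, the median over probes, no dim filter, a fold of 1.3, no signal threshold and each array alone.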

Additional observations from a re-analysis of the deposited data

Results flagged for a closer look

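Acadvl, Acads and Ucp2 are given here because they were at least 1.2-fold lower in the female and at least 1.2-fold higher in the male pool labelled Pparg-cKO after loess, as were 0.862% of all genes. In the male pair Acadvl stayed under this size without an offset (0.25), from scanner-processed signals (0.09) and in the deposited table (0.14, log2 ratios), and was past it with median centring (0.46), while Acads and Ucp2 reached it under these 4 settings. The male minus female difference of the log2 ratio was 0.63 for Acadvl, 0.64 for Acads and 0.65 for Ucp2. This difference was not tested, as there was 1 array of each sex, and sex, dye orientation and array cannot be told apart. For Acads the signals were near or under 100 in all 4 pools.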

How the results depend on the processing

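Each ratio already compares the Pparg-cKO and control pool of the same array, so the analysis was paired by array. The arrays form 1 group of 2. Median centring gave 0 members and 0 related genes past the fold rule and 0 members higher on both arrays, with the split of all genes past the rule at 47.0% lower against 57.0% with loess. A threshold of 1.3-fold gave 4 members (Acot1, Decr1, Decr2 and Pdk4, all lower, against 1.89% of bright genes) and 2 related genes, Vldlr among them. In limma, the background correction without an offset gave 2 members with an adjusted p under 0.05, Pdk4 (0.0302) and Acot1 (0.0292), and 3 related genes, Plin5 and Vldlr among them, while 571 genes in all passed. Scanner-processed signals gave 1 related gene, Plin5. Without the signal threshold 2 members and 1 related gene passed the fold rule. The deposited table gave 1 member higher on both arrays. The cause of these differences was not tested. With 1 array at a time, 2 members passed 1.5-fold on either array and 4 to 5 related genes passed. Of all bright genes 3.14% (female) and 8.70% (male) passed. On a single array 22 to 38 members were lower, against 47.7% (male) to 51.8% (female) of all genes, and 2 to 18 were higher. The median of the members ran from -0.17 (without replicate 2) to -0.05 (without replicate 1). The number of members lower on both arrays was 17 to 23 over the ways of processing that used both arrays. The mean was below 0 under all 7 of these ways for 22 members, above 0 for 8 and without a constant sign for 10 (Acads, Acadsb, Acadvl, Acsl6, Angptl4, Cpt1a, Hadha, Lipe, Lpl and Pnpla2). The matching shares of all genes were not computed. Under the main processing alone the mean was below 0 for 29 members (72.5%), against 47.1% of all genes tested. Of the 6 members under the signal threshold, Acox2, Acsl6, Cpt1b, Crat and Lipe lay closest to background, where the offset pulls ratios towards 0.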
